A study of Mus musculus with 7 samples.

Results

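The Bcl2 family of mouse oocytes was followed through 9 genes, Bcl2l10, Bcl2, Bcl2l1, Mcl1, Bax, Bak1, Bok, Bid and Bad, taken by their symbols from the 25912 entries of the series, in which each symbol was found. Bcl2l10 was chosen by its FPKM level, as the most abundant transcript of MII oocytes in these libraries, and the other members by their place in the family, so the level of Bcl2l10 is described here and not tested. The 7 Smart-seq2 libraries held 10 oocytes each and came from 4-week-old C57BL/6 females given 5 IU PMSG 44 h before collection. Germinal vesicle (GV) oocytes, arrested in meiotic prophase and labelled as untreated, gave 2 libraries. Metaphase II (MII) oocytes, matured for 16 h in M16 medium with the solvent DMSO, gave 3, and MII oocytes cultured with BYBX, a ligand that binds RNA G-quadruplexes (rG4s, stacked folds of guanine-rich RNA), gave 2. The study reports that with BYBX fewer oocytes emitted a polar body and that those reaching MII had abnormal spindles. The part of meiotic progress in the levels with BYBX was not tested. The study's methods give the GV oocytes DMSO as well, and name no dose of BYBX for these libraries, while a legend on translation efficiency, a measure that draws on Smart-seq2 levels, gives 1 μM. Whether the libraries of a group came from different females or culture days was not given either, so the p-values measure the spread between these libraries, which may be technical.

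The Bcl2 family decides whether the outer mitochondrial membrane is opened during apoptosis. Bax and Bak1 form the pores, pro-survival members such as Bcl2, Bcl2l1 (Bcl-xL) and Mcl1 hold the pore-forming effectors in check, and BH3-only members such as Bid and Bad relay death signals by binding the others. Bcl2l10 is grouped here with the pro-survival members, and its function in these oocytes was not tested. Ovarian germ cells are lost by apoptosis on a large scale during development, and a fully grown oocyte makes almost no RNA of its own while it matures, so its stored maternal transcripts can be kept, masked or destroyed but not replaced.

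Transcript levels are given in FPKM, fragments per kilobase of transcript relative to all reads, which are set per length and were scaled by the authors to an added ERCC spike-in RNA. The total FPKM of a library was 402113 to 489569 in GV, 109732 to 127254 in MII with DMSO and 201482 to 246710 in MII with BYBX, so most entries were lower in MII. Fewer intact oocytes and less RNA per oocyte cannot be told apart in such libraries. All 10 oocyte markers (Zp3, Gdf9, Bmp15 and others) reached 1 FPKM as a mean of the group means, with summed levels of 2501 to 12264 FPKM per library. Of 10 granulosa and cumulus cell markers 3 reached it (Cyp19a1, Nr5a2 and Inha). The summed level of the 10 was 9.20 to 16.6 FPKM in GV, 2.30 to 2.64 in MII with DMSO and 3.83 to 4.31 with BYBX. Amh, Foxl2 and Has2 stood at 0.138 FPKM or below in every library. None of 5 erythrocyte markers reached 1 FPKM. The granulosa and cumulus sums had the same order of groups as the members that were called, and their part in the results was not tested.

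Bcl2l10 stood far above the rest of the family in every library. The gene lies at chr9:75347758-75351632 on the plus strand (GRCm38), and its transcript of 1220 nt has 2 exons, a coding sequence of 573 nt and a 3′ UTR of 502 nt. Its level was 5037 and 4900 FPKM in the GV libraries, 3411, 4779 and 5102 FPKM in MII with DMSO, and 6022 and 3683 FPKM in MII with BYBX. The 3 groups overlapped, and the lowest library of each MII group lay below both GV libraries. The group means were 4968 ± 97 (SD, n = 2), 4431 ± 898 (n = 3) and 4852 ± 1654 FPKM (n = 2), that is 89.2% of the GV mean in MII with DMSO and 97.7% with BYBX. Over the 9194 entries with a GV level that passed the filter of 1 FPKM, the median entry kept 16.3% and 43.4% of its GV level, and 297 entries (3.23%) and 540 entries (5.87%) kept as large a share as Bcl2l10. It ranked second in both GV libraries, under Elobl at 5606 and 5654 FPKM, and first in all 5 MII libraries. Its share of the total FPKM was 1.03% and 1.22% in GV, 3.11%, 3.87% and 4.01% in MII with DMSO, and 2.44% and 1.83% with BYBX. The rule set this rank, so it is no finding. The MII level by which Bcl2l10 was chosen also enters its share of the GV level kept and its share of the total FPKM. Both are thus favoured by that choice and are no finding either. The 4 entries next to it in MII with DMSO were Pttg1 (securin), Zbed3, H1f8 (the oocyte linker histone) and Bpgm, with mean levels of 2496, 2201, 2040 and 1654 FPKM.

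**Figure D1:**
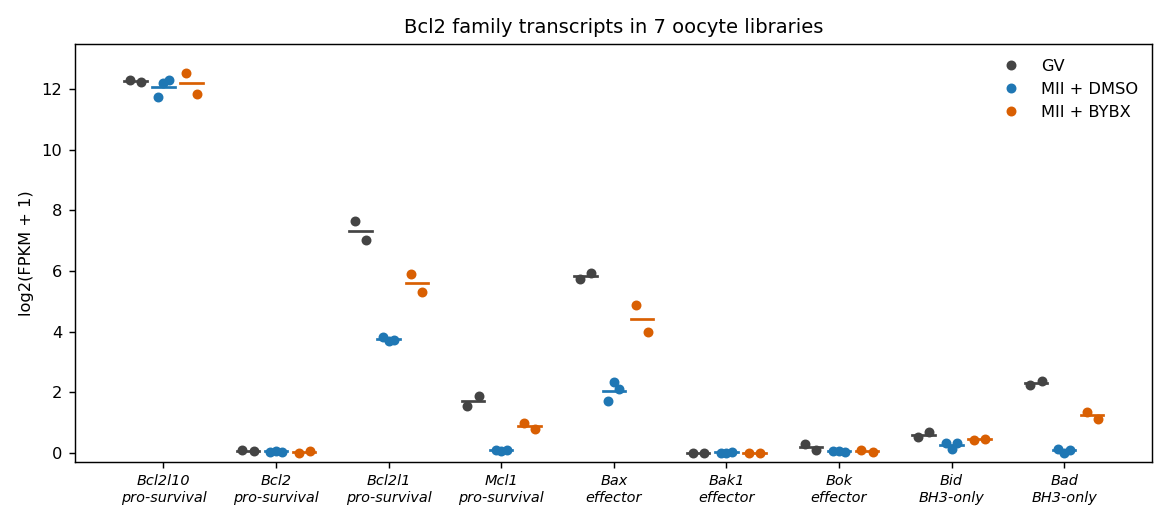
Level of each of the 9 family members as log2(FPKM + 1), with 1 point per library and a bar at the mean of each group of 2 or 3 libraries. Bcl2l10 lies above every other member in all 7 libraries, Bcl2l1, Bax, Mcl1 and Bad are highest in GV, lowest in MII with DMSO and between these in MII with BYBX, and Bcl2, Bak1, Bok and Bid lie near 0.

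The end of the Bcl2l10 transcript was the only one among the members with a match to a cytoplasmic polyadenylation element (CPE). A CPE is the short uridine-rich signal by which stored oocyte mRNAs can be given longer poly(A) tails. The last 100 bases of each 3′ UTR were searched on the sense strand for TTTTAT or TTTTAAT and for the polyadenylation signals AATAAA or ATTAAA, a search chosen after the levels were known. The longest coding transcript with a 3′ UTR was used, for Bax the transcript Bax-201. The sequences are shown for Bcl2l10 and for the 4 members below it in level, with both kinds of element in capitals.
Bcl2l10, chr9:75351591-75351617, plus strand: TTTTAATaacttcaaattcttAATAAA
Bcl2l1, chr2:152780689-152780706, minus strand: gtgcagttcagtAATAAA
Bax, chr7:45461718-45461735, minus strand: tggggaggcgccAATAAA
Bad, chr19:6951862-6951879, plus strand: aacgtgctttatAATAAA
Mcl1, chr3:95663146-95663163, plus strand: ttctgaagagaaAATAAA
The stretch shown for Bcl2l10, from the CPE match through the polyadenylation signal, ended 15 bases before the annotated end of the transcript. A CPE match was present in 1 of the 9 members and in 16.5% of the 21707 protein-coding genes with a 3′ UTR. A CPE together with a polyadenylation signal was present in 13.3% of these genes. A count near these shares is no result about the members. A polyadenylation signal alone was found in 8 of the 9 members (all but Bid) and in 74.9% of genes. A match describes the letters in this window and not a working site.

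Among the other pro-survival members only Bcl2l1 was abundant, and it fell during maturation. Bcl2l1 encodes Bcl-xL (chr2:152780668-152831728, minus strand). Its level was 199.5 and 128.7 FPKM in GV, 13.2, 11.8 and 12.2 FPKM in MII with DMSO, and 59.1 and 38.5 FPKM in MII with BYBX. The groups did not overlap, and the BYBX libraries lay between the other two groups. MII with DMSO kept 7.56% of the GV mean and MII with BYBX 29.7%. Changes were tested with limma on log2(FPKM + 1) in 1 model of the 7 libraries, with p-values adjusted by Benjamini-Hochberg over the 9202 entries that averaged 1 FPKM or more across the group means; on this scale the change of a low gene is understated. Bcl2l1 fell by 3.59 ± 0.28 (SE) from GV to MII with DMSO (limma, adjusted p = 3.3e-08) and was higher with BYBX than with DMSO by 1.86 ± 0.28 (limma, adjusted p = 6.4e-05). It was still lower with BYBX than in GV, with a log2 change of -1.73 ± 0.31 (limma, adjusted p = 3.3e-04).

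Mcl1, a short-lived pro-survival protein that many cells need to survive (chr3:95658788-95663176, plus strand), was listed at 1.92 and 2.62 FPKM in GV. It stood at 0.0524, 0.0447 and 0.0708 FPKM in MII with DMSO and at 0.955 and 0.717 FPKM with BYBX. The groups again did not overlap, and the order was that of Bcl2l1 at a level about as low as the filter. The log2 change was -1.62 ± 0.17 from GV to MII with DMSO (limma, adjusted p = 6.6e-07), 0.80 ± 0.17 from DMSO to BYBX (adjusted p = 0.0011) and -0.83 ± 0.19 from GV to BYBX (adjusted p = 0.0016). Bcl2 itself, the founding member of the family (chr1:106538178-106714274, minus strand), was at 0.0643 FPKM or below in every library and did not pass the filter.

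Of the effectors, Bax was the one measured above trace level. Bax (chr7:45461697-45466898, minus strand) stood at 52.2 and 60.3 FPKM in GV, at 2.26, 3.99 and 3.34 FPKM in MII with DMSO and at 28.1 and 14.9 FPKM in MII with BYBX. The 3 groups did not overlap. MII with DMSO kept 5.68% of the GV mean and MII with BYBX 38.2%, and the BYBX mean was 6.72 times that with DMSO. Bax fell by 3.79 ± 0.30 on the log2 scale from GV to MII with DMSO (limma, adjusted p = 3.4e-08). With BYBX it was higher than with DMSO by 2.38 ± 0.30 (limma, adjusted p = 1.2e-05) and differed from GV by -1.41 ± 0.33 (adjusted p = 0.0019). Bak1 (chr17:27019810-27029009, minus strand), the effector that resides on mitochondria, was listed at 0 in 6 libraries and at 0.0263 FPKM in MII with DMSO replicate 3. Bok, a less studied effector-like member (chr1:93685660-93695764, plus strand), was at 0.230 and 0.0593 FPKM in GV and at 0.0558 FPKM or below in the 5 MII libraries. Neither passed the filter, and the depth behind these values is unknown.

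Both BH3-only members were low. Bad (chr19:6941861-6951899, plus strand), which binds pro-survival proteins such as Bcl-xL, was at 3.69 and 4.198 FPKM in GV, at 0.0944, 0 and 0.0692 FPKM in MII with DMSO and at 1.55 and 1.15 FPKM with BYBX. Its groups did not overlap either. The log2 change of Bad was -2.23 ± 0.18 from GV to MII with DMSO (limma, adjusted p = 3.9e-08), 1.15 ± 0.18 from DMSO to BYBX (adjusted p = 7.6e-05) and -1.08 ± 0.19 from GV to BYBX (adjusted p = 3.5e-04). Bid (chr6:120891930-120916853, minus strand), which is cut by caspase-8 to carry a death receptor signal to mitochondria, was under the filter. It stood at 0.426 and 0.589 FPKM in GV, 0.242, 0.0884 and 0.234 FPKM in MII with DMSO, and 0.325 and 0.382 FPKM with BYBX. The 5 MII libraries all lay below the 2 GV libraries. With no filter Bid was called lower in MII with DMSO than at the GV stage (log2 change -0.34, limma, adjusted p = 0.012). So were 65% of the 18497 entries tested with no filter. Bid was not called with BYBX against GV (limma, adjusted p = 0.22) or against DMSO (0.15).

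Most entries of the series moved in the same directions as these members. Leaving out Bcl2l10, 8 members were counted, of which 4 passed the filter, Mcl1 and Bad through their GV level. All 4 were called lower in MII with DMSO than at the GV stage, against 88.3% of all tested entries. With BYBX all 4 were called higher than with DMSO, against 65.2% of all entries, and lower than in GV, against 69.2%. In the opposite directions 0.272%, 0.0326% and 0.315% of entries were called. The 3 comparisons share their libraries. A count near the share of all entries is no result about the members, so each change is also given against the median change of all tested entries, which was -1.83 from GV to MII with DMSO, 0.84 from DMSO to BYBX and -0.99 from GV to BYBX.

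Set against these medians, the members separated on the log2(FPKM + 1) scale. The distances of Bcl2l10 hold the MII level by which it was chosen. From GV to MII with DMSO, Bax lay 1.96 and Bcl2l1 1.76 below the median entry on the log2 scale, Bad lay 0.40 below it and Mcl1 0.21 above it, whereas Bcl2l10, with a log2 change of -0.19, lay 1.65 above it. From DMSO to BYBX, Bax lay 1.54, Bcl2l1 1.03 and Bad 0.32 above the median, Mcl1 lay at the median (log2 distance -0.04), and Bcl2l10, with a log2 change of 0.11, lay 0.73 below it. These distances are descriptions with no test, and the added 1 FPKM understates the changes of the low genes Mcl1 and Bad. As a share of the GV mean, MII with DMSO kept 2.46% for Mcl1 and 1.38% for Bad. These shares are below those of Bax (5.68%), Bcl2l1 (7.56%) and the median entry (16.3%). The BYBX means were 14.9 and 24.8 times those with DMSO for Mcl1 and Bad, and 6.72 and 3.93 times for Bax and Bcl2l1. In MII with DMSO the means of Mcl1 and Bad were 0.0560 and 0.0545 FPKM. With the depth unknown these levels cannot be told from the detection limit, so the shares and folds of Mcl1 and Bad are uncertain. With all 7 libraries brought to 1 common FPKM total (the same total FPKM hereafter) the medians became -0.56, 0.34 and -0.17, and with libraries centred on their median log2 value they became 0.47, -0.44 and 0.04. The shares of entries called lower and higher became 49.5% and 23.3% (MII with DMSO against GV), 8.22% and 39.9% (BYBX against DMSO) and 13.3% and 5.3% (BYBX against GV) at the same total, and 26.7% and 48.8%, 43.9% and 18.4%, and 13.6% and 15.2% after centring. Under both scalings Bax and Bcl2l1 were again called lower in MII with DMSO than at the GV stage and higher with BYBX than with DMSO. Mcl1 and Bad changed sign under median centring, where Mcl1 was called higher in MII with DMSO than in GV (log2 change 0.68) and lower in BYBX than in DMSO libraries (-0.48), and neither change of Bad was called (0.07 and -0.13). In the comparison of BYBX with GV only Bcl2l1 was called under either scaling (log2 change -0.74 and -0.70). Bcl2l10 depended on the scaling as well. Its log2 change from GV to MII with DMSO was -0.19 as deposited, 1.70 at the same total and 2.12 after centring, from DMSO to BYBX -0.78 and -1.17, and from GV to BYBX -0.08 as deposited, 0.92 and 0.95.

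**Figure D2:**
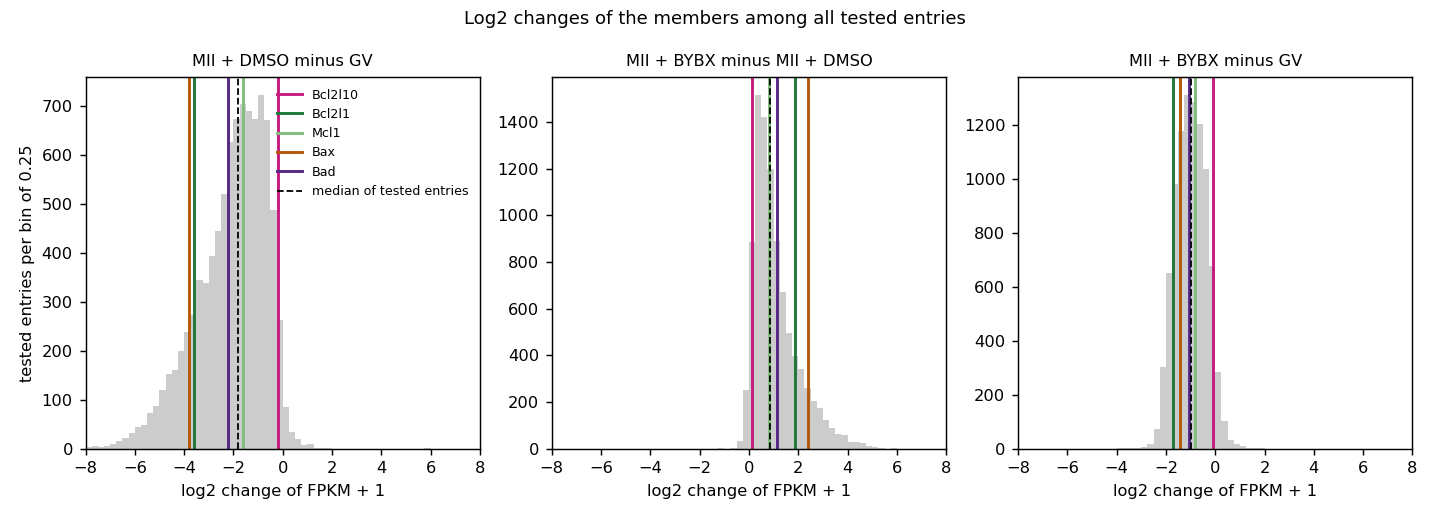
Histograms of the log2 change of FPKM + 1 over the 9202 tested entries in bins of 0.25 (grey bars; entries per bin), 1 panel per comparison, with a line for each of the 5 members past the filter and a dashed line at the median entry. In MII with DMSO against GV, Bax (-3.79) and Bcl2l1 (-3.59) lie left of the median of -1.83 and Bcl2l10 (-0.19) right of it, and in BYBX against DMSO the order is turned round.

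Ratios within a library do not depend on the factor by which the library was scaled. Bcl2l10 made up 95.1% and 96.1% of the FPKM summed over the 9 members in GV, 99.5%, 99.7% and 99.7% in MII with DMSO, and 98.5% in both BYBX libraries. The 8 other members together summed to 258 and 197 FPKM in GV, to 15.94, 16.01 and 15.94 FPKM in MII with DMSO, and to 90.0 and 55.7 FPKM with BYBX. The level of Bcl2l10 was 96.4 and 81.2 times that of Bax in GV, 1509, 1197 and 1528 times in MII with DMSO, and 215 and 248 times with BYBX. These values hold the level that chose Bcl2l10 and are given with no test.

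The balance between the other pro-survival members (Bcl2, Bcl2l1 and Mcl1, in practice Bcl2l1) and the effectors (Bax, Bak1 and Bok, in practice Bax) was not shown to differ between groups. The ratio of their summed FPKM was 3.84 and 2.18 in GV, 5.81, 2.95 and 3.63 in MII with DMSO, and 2.14 and 2.64 with BYBX. The GV libraries overlapped both MII groups, and both BYBX libraries lay below the 3 DMSO libraries. The log2 ratio was lower by 0.74 on average with BYBX than with DMSO (1.25 ± 0.22 against 1.99 ± 0.50, SD, n = 2 and 3; exact two-sided permutation test, p = 0.2, where the smallest possible p is 0.1). The difference between MII with DMSO and GV was 0.45 (exact permutation p = 0.5) and that between BYBX and GV was -0.29 (exact permutation p = 0.667, smallest possible 0.333). The ratio of Bid and Bad to the effectors was 0.0785 and 0.0793 in GV, 0.147, 0.0219 and 0.0897 in MII with DMSO, and 0.0668 and 0.103 with BYBX. Its groups overlapped in every comparison, with log2 differences of -0.26, 0.33 and 0.07 (exact permutation p = 1, 0.9 and 1). None of these 6 tests could reach 0.05, so they do not show that the ratios were alike.

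**Figure D3:**
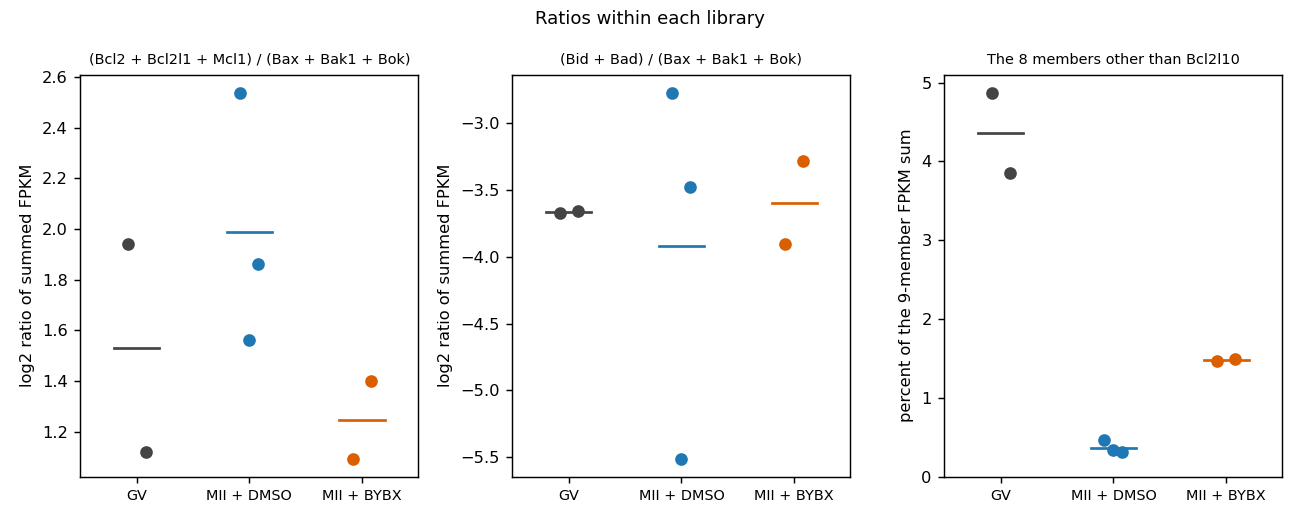
Within-library measures, with 1 point per library and a bar at the group mean: the log2 ratio of summed FPKM of Bcl2, Bcl2l1 and Mcl1 to Bax, Bak1 and Bok (left), that of Bid and Bad to the same effectors (middle), and the percent of the 9-member FPKM sum held by the 8 members other than Bcl2l10 (right). The 8 members hold 3.86% to 4.87% in GV, 0.311% to 0.465% in MII with DMSO and 1.47% to 1.49% with BYBX, whereas the other measures overlap between GV and both MII groups.

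Most genes of the wider Bcl2 family that could be tested were also highest in GV. Of 16 other family genes 7 passed the filter. All 7 were called lower in MII with DMSO than at the GV stage (88.3% of all entries), 4 were called higher with BYBX than with DMSO (65.2% of all entries) and 4 lower with BYBX than in GV (69.2%). Bcl2l15 passed the filter only through its GV level (means of 3.31, 0.0761 and 0.328 FPKM), so its place among them was favoured by the filter. The median log2 changes of the 7 were -1.98, 0.60 and -1.11. The most abundant were Bnip3l and Bnip3, outer-membrane receptors for the removal of mitochondria by autophagy. Bnip3l stood at 104.8 and 91.8 FPKM in GV, 12.1, 11.1 and 15.4 FPKM in MII with DMSO and 42.7 and 47.3 FPKM with BYBX. Bnip3 stood at 43.5 and 33.3 FPKM in GV, 19.3, 20.3 and 17.5 FPKM in MII with DMSO, and 23.7 and 25.8 FPKM with BYBX. Both fell from GV to MII with DMSO (limma, adjusted p = 1.1e-07 for Bnip3l and 0.0021 for Bnip3), and only Bnip3l was called higher with BYBX than with DMSO (adjusted p = 4.3e-05, against 0.20 for Bnip3); a difference between them was not tested. Bik, a BH3-only protein, had means of 10.8, 1.98 and 3.58 FPKM in GV, MII with DMSO and MII with BYBX. It was called in all 3 comparisons, but the call between BYBX and DMSO (limma, adjusted p = 0.035) was lost with no filter (0.068), with the replicate block (0.13) and without MII with DMSO replicate 1 (0.078), 2 (0.054) or 3 (0.11) or BYBX replicate 1 (0.28). Bcl2l11, the BH3-only protein Bim, had means of 2.83, 1.51 and 1.58 FPKM and was called lower in MII with DMSO than at the GV stage (adjusted p = 0.019; 0.17 without GV replicate 1 and 0.073 without MII with DMSO replicate 2) and not between BYBX and DMSO (adjusted p = 0.87).

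Bcl2l13 and Bcl2l12 completed the named genes of this list. Bcl2l13, a mitochondrial outer-membrane protein, had means of 10.3, 3.56 and 6.39 FPKM in the same order, and its rise from DMSO to BYBX (limma, adjusted p = 0.019) was not called without MII with DMSO replicate 2 (0.068) or BYBX replicate 1 (0.12). Bcl2l12 stood at 9.92 and 9.48 FPKM in GV, 0.174, 0.0791 and 0.330 FPKM in MII with DMSO and 2.58 and 3.26 FPKM with BYBX, with adjusted p-values of 4.5e-09 for the fall from GV and 7.1e-06 for the rise from DMSO to BYBX. The 4 genes called lower with BYBX than in GV were Bnip3l, Bik, Bcl2l12 and Bcl2l15, the last of which was named after its values were seen. Without GV replicate 2 all 7 were called lower with BYBX than in GV, and without MII with DMSO replicate 2 or BYBX replicate 1 only 2 were called higher with BYBX than with DMSO. The directions of the list depend on the scaling. At the same total FPKM, 3 of the 7 were called lower and 2 higher in MII with DMSO than in GV, and after median centring 2 lower and 3 higher. Bnip3l and Bcl2l12 kept the sign of their changes from GV and from DMSO under either scaling, but after median centring their changes from DMSO to BYBX were 0.46 and 0.44 (limma, adjusted p = 0.064 for each) and no longer called, whereas Bnip3, Bik, Bcl2l11 and Bcl2l13 changed sign under at least 1 of them.

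Downstream of the family, 18 of 24 genes of apoptosis execution and its control passed the filter. From GV to MII with DMSO 16 were called lower, against 88.3% of all entries, and Trp53 and Apaf1 (the latter named after its values were seen) were not called. With BYBX 12 were called higher than with DMSO, against 65.2% of all entries, and 10 lower than in GV, against 69.2%. Fadd and Xiap, named after their values were seen, passed the filter through their GV level. The median log2 changes were -1.59, 0.73 and -0.68, each nearer to 0 than the median of all entries. At the same total FPKM 5 were called lower and 6 higher in MII with DMSO than in GV, and after centring 5 and 13, so for this list too the direction depends on the scaling.

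The 3 VDAC channels, which carry metabolites across the outer mitochondrial membrane, differed widely in level. Vdac3 stood at 262 and 242 FPKM in GV, at 2.30, 2.82 and 2.74 FPKM in MII with DMSO and at 66.4 and 51.8 FPKM with BYBX. Its log2 change was -6.13 ± 0.24 (limma, adjusted p = 2.6e-10) from GV to MII with DMSO and 4.05 ± 0.24 from DMSO to BYBX (adjusted p = 4.2e-08), and both were called under both scalings. Vdac2 had means of 46.2, 3.37 and 13.1 FPKM, and Vdac1 of 7.19, 3.06 and 5.73 FPKM, in GV, MII with DMSO and MII with BYBX. MII with DMSO thus kept 1.04%, 7.29% and 42.5% of the GV level of Vdac3, Vdac2 and Vdac1. Transcripts of 3 proteins that leave mitochondria once the membrane is open were lower in MII with DMSO as well. Aifm1, a flavoprotein that can enter the nucleus, had means of 27.9, 1.997 and 8.27 FPKM, Htra2, a protease, had 29.0, 9.34 and 20.5 FPKM, and Diablo, which binds inhibitor of apoptosis proteins, had 10.9, 2.76 and 6.55 FPKM. All 3 were called lower in MII with DMSO than at the GV stage and higher with BYBX than with DMSO. With BYBX against GV, Aifm1 and Diablo were called lower and Htra2 was not (limma, adjusted p = 0.11). A difference between them was not tested. The call of Diablo (limma, adjusted p = 0.040) was lost with a pseudocount of 0.1 (0.073), with no filter (0.0505) and with the replicate block (0.086). It was also lost in the fit of the 2 groups (0.11) and without any 1 of the DMSO libraries (0.051 to 0.063). That of Aifm1 was lost at the same total FPKM (0.058). Htra2 and Diablo changed sign in both of the first comparisons under median centring. There both were called higher in MII with DMSO than in GV (log2 change 0.76 and 0.65).

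Birc3 and Trp53 kept most of their GV level, as Bcl2l10 did. Birc3, an inhibitor of apoptosis protein and the most abundant gene of this list, stood at 344 and 246 FPKM in GV, at 183, 190 and 182 FPKM in MII with DMSO and at 227 and 212 FPKM with BYBX. It kept 62.8% of its GV mean with DMSO. Its fall (log2 change -0.65 ± 0.24; limma, adjusted p = 0.022) was not called without GV replicate 1 (adjusted p = 0.15), without MII with DMSO replicate 2 (0.056) or 3 (0.051), or with the replicate block (0.074). Trp53, which encodes p53, stood at 28.2 and 24.5 FPKM in GV, 18.3, 23.3 and 24.9 FPKM in MII with DMSO and 36.4 and 22.9 FPKM with BYBX. Its groups overlapped, and it was not called in any comparison (limma, adjusted p = 0.40, 0.23 and 0.70), which does not show that its level was the same. At the same total FPKM both genes changed sign and were called higher in MII with DMSO than in GV (log2 change 1.23 for Birc3 and 1.57 for Trp53), and Trp53 was also called higher with BYBX than in GV (1.08).

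**Figure D4:**
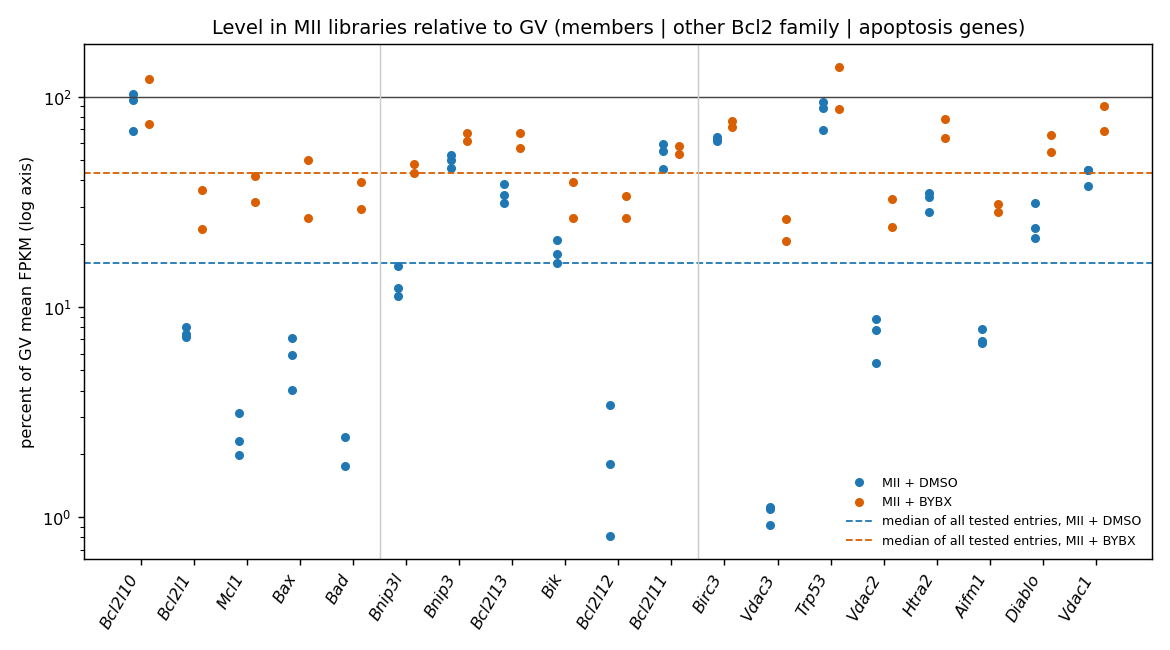
Level in each MII library as percent of the GV mean FPKM (log axis) for the 5 members past the filter (left), the 6 named genes of the wider family (middle) and the 8 named apoptosis genes (right), with 1 point per library, a solid line at 100% and dashed lines at the median of all tested entries (16.3% with DMSO, 43.4% with BYBX). Bcl2l10 and Trp53 lie around 100%, whereas Bax, Bcl2l1, Mcl1 and Bad lie below both medians with DMSO; MII with DMSO replicate 2 is at 0 for Bad and cannot be drawn on this axis.

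BYBX binds rG4s, so the members were searched for rG4 motifs, here 4 stretches of 3 or more G separated by 1 to 7 bases, on the sense strand of the longest protein-coding transcript. The separating bases could themselves be G, so a long run of G could hold more than 1 stretch. A motif was found in 3 of the 9 members, against 17.7% of 21901 protein-coding genes. These 3, Bcl2, Bok and Bak1, did not pass the filter and were at 0.230 FPKM or below in every library. The motifs are shown as the kind of sequence the ligand is made to bind, with the G runs in capitals.
Bcl2, 5′ UTR, chr1:106712924-106712946, minus strand: GGGGccgtGGGGcGGGagtcGGG
Bok, 5′ UTR, chr1:93685716-93685741, plus strand: GGGtgtggacGGGGcGGGcgctGGGG
Bak1, 3′ UTR, chr17:27020678-27020695, minus strand: GGGGGGGGtGGGtGGGGG
Bak1, 3′ UTR, chr17:27019932-27019948, minus strand: GGGttGGGtGGGGtGGG
No match was present in Bcl2l10, Bcl2l1, Mcl1, Bax, Bid or Bad. For Bax the transcript searched was Bax-203, which is annotated without a 3′ UTR, so the 3′ UTR of Bax was not searched. With runs of at least 2 G all 9 members held a motif, as did 91.3% of genes. The search says nothing of folds outside this pattern.

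The entries whose profile was most like that of Bcl2l10 over the 7 libraries, among 3790 with a mean of at least 10 FPKM, were Nip7 (Pearson's r of log2(FPKM + 1) 0.982), Cdc42bpb (0.981), Bpgm (0.980), Smim14 (0.978) and Klf7 (0.978). All 5 had their lowest values in MII with DMSO replicate 1 and MII with BYBX replicate 2, the libraries in which Bcl2l10 was lowest, and their highest in BYBX replicate 1. Bpgm, for example, was at 1862 and 1728 FPKM in GV, 1212, 1834 and 1914 FPKM in MII with DMSO, and 2430 and 1433 FPKM with BYBX. The points share the library scale, so the likeness is a description with no p, and at the same total FPKM only Smim14 was among the 5 most like entries.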

How the data were processed

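Libraries of 10 oocytes were made by Smart-seq2 with oligo-dT priming, which captures a transcript by its poly(A) tail, so tail length can change a measured level. The authors trimmed reads with Trim Galore 0.6.7, aligned them to mm10 with HISAT2 2.2.1 and computed FPKM with Cufflinks 2.2.1 on UCSC gene models (versions from the submitters' processing notes). The deposited FPKM values had been normalized to the ERCC spike-in (100 pg per sample) and then, across batches, to the GV libraries within every batch. The scaling factors and the batch of each library were not given in the sources used here, and no spike-in entry is listed, so the scaling could not be checked. FPKM keep no read counts, so depth is unknown and precision is that of 2 or 3 libraries per group.

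Of 25912 entries, 4 with a missing value were left out. Log2(FPKM + 1) of the 9202 entries with a mean of the 3 group means of at least 1 FPKM was fitted with limma 3.58.1 in R 4.3.3 (3 group means, eBayes with intensity trend), and calls were made at 0.05 after Benjamini-Hochberg adjustment over these entries. The step was tested on simulated data. Within-library log2 ratios were compared by exact two-sided permutation tests (scipy 1.17.1). The members and lists were chosen with earlier results of these data known. All 9 members, the 6 wider family genes and 8 apoptosis genes with the highest mean level, the 4 entries next to Bcl2l10 in MII with DMSO and the 5 most like it are named. Gene models and sequences were taken from GENCODE vM21, whose build GRCm38 is the same as mm10. Results were recomputed at equal library totals, after centring on library medians, in fits without the third group, with the replicate block, without the intensity trend, with a 2-fold minimum, at a pseudocount of 0.1, at a filter of 5 FPKM or without one, and without each library.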

Additional observations from a re-analysis of the deposited data

How the results depend on the processing

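The counts of members called, 4 in each comparison, stayed at 4 without each library in turn, with a pseudocount of 0.1, in fits of 2 groups and with no intensity trend, and at 3 or more with a minimum of 2-fold; where a library was left out of a group of 2, the lone library was assumed to vary like the others. They fell to 2 in all 3 comparisons with a filter at 5 FPKM, where only 2 members are tested. The scaling mattered most, and the cause was not tested. At the same total FPKM 1 member was called lower with BYBX than in GV. After median centring MII with DMSO against GV gave 2 lower and 1 higher, BYBX against DMSO gave 2 higher and 1 lower, and BYBX against GV gave 1 lower. The 1 higher and the 1 lower of the first 2 comparisons were Mcl1, whose centred values in MII with DMSO hold mainly the shift of the library. The depth is unknown, so the levels of Bcl2, Bak1, Bok and Bid, and those of Mcl1 and Bad in MII with DMSO, cannot be told from the detection limit.

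For the wider family, 7 lower, 4 higher and 4 lower in the 3 comparisons became 4, 3 and 2 with a filter at 5 FPKM, where 4 are tested. At the same total FPKM they became 3 lower and 2 higher, 1 lower and 2 higher, and 1 lower, and after median centring 2 lower and 3 higher, 5 lower and 0 higher, and 1 lower. The 4 higher of BYBX against DMSO became 2 with a minimum of 2-fold and 2 to 5 without single libraries, and the 4 lower of BYBX against GV became 4 to 7 without single libraries. For the apoptosis genes, 16 lower, 12 higher and 10 lower became 7, 6 and 4 with a filter at 5 FPKM, and 12 and 10 became 6 and 6 with a minimum of 2-fold. At the same total FPKM they became 5 lower and 6 higher, 1 lower and 4 higher, and 3 lower and 1 higher, and after median centring 5 lower and 13 higher, 9 lower and 1 higher, and 4 lower and 7 higher.

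Single genes whose log2 change took the other sign were the following. From GV to MII with DMSO at the same total FPKM the values were 0.69 for Bcl2l11, 0.32 for Bcl2l13, 1.23 for Birc3, 0.86 for Bnip3, 0.23 for Htra2, 1.57 for Trp53 and 0.55 for Vdac1. After median centring they were 0.075 for Bad, 1.72 for Bcl2l11, 1.01 for Bcl2l13, 0.32 for Bik, 1.65 for Birc3, 1.34 for Bnip3, 0.65 for Diablo, 0.76 for Htra2, 0.68 for Mcl1, 2.06 for Trp53 and 1.30 for Vdac1. From DMSO to BYBX at the same total FPKM they were -0.57 for Bcl2l11, -0.044 for Bcl2l13, -0.052 for Bik, -0.65 for Birc3, -0.50 for Bnip3 and -0.49 for Trp53. After median centring they were -0.13 for Bad, -1.24 for Bcl2l11, -0.58 for Bcl2l13, -0.67 for Bik, -1.04 for Birc3, -0.91 for Bnip3, -0.27 for Diablo, -0.22 for Htra2, -0.48 for Mcl1, -0.90 for Trp53 and -0.55 for Vdac1. From GV to BYBX at the same total FPKM they were 0.12 for Bcl2l11, 0.28 for Bcl2l13, 0.58 for Birc3, 0.36 for Bnip3, 0.23 for Diablo, 0.46 for Htra2 and 0.55 for Vdac1. After median centring they were 0.48 for Bcl2l11, 0.43 for Bcl2l13, 0.62 for Birc3, 0.43 for Bnip3, 0.38 for Diablo, 0.54 for Htra2, 0.20 for Mcl1 and 0.74 for Vdac1, and of these Birc3 and Vdac1 were called higher. Bcl2l10, which was not tested, changed sign as well. Without single libraries the change of Bcl2l11 from DMSO to BYBX lay between -0.027 and 0.092 and that of Trp53 from GV to BYBX between -0.19 and 0.45.

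The log2 ratio of pro-survival members to effectors, 0.45 between MII with DMSO and GV, was -0.16 with 1 FPKM added to each member, and between BYBX and GV, -0.29, it ranged from -0.70 to 0.12 without single libraries. The log2 ratio of Bid and Bad to effectors became 1.73 (MII with DMSO against GV) and -1.21 (BYBX against DMSO) with 1 FPKM added, and ranged from -0.83 to 0.54, from -0.47 to 0.90 and from -0.24 to 0.38 in the 3 comparisons without single libraries. The mean share of Bcl2l10 was 92.5%, 98.7% and 96.7% in GV, MII with DMSO and MII with BYBX when the wider family was added to the sum, and 99.4% and 98.3% in the MII groups with 1 FPKM added. Of the 5 entries most like Bcl2l10, 1 was among the 5 at the same total FPKM. With runs of at least 2 G, 9 members held an rG4 motif in place of 3.

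Libraries of the same number deviated together in GV and MII with DMSO (r = 0.487 and 0.282) and in opposite directions in BYBX and DMSO (-0.601 and -0.348) and in BYBX and GV (-0.330), so the numbers were not taken to pair the libraries; whether libraries of the same number shared a batch was not given. With the replicate block the members called stayed at 4 in each comparison, the wider family gave 7, 3 and 4, and the apoptosis genes 14, 9 and 9. With the numbers of BYBX and GV crossed, an alternative chosen after seeing the data, 4 members, 4 genes of the wider family and 9 apoptosis genes were lower in BYBX against GV.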
